A study of Mus musculus with 2 samples.

Results

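The genes described here are the members of 7 families of amino acid transporters, the solute carrier families Slc1, Slc3, Slc6, Slc7, Slc36, Slc38 and Slc43. Members were picked by symbol from the platform's probe annotation, with no measured value used, but the families were chosen with earlier results of these data known. Of the 19751 named genes, 60 were members. The rule asks for a family name that ends in a number, so Slc6a20a and Slc6a20b are outside it. Gene expression was measured on 2 arrays, replicate 2 and replicate 1, of 1 group: fibroblastic reticular cells (FRCs), the fibroblasts that form the reticular meshwork of lymph nodes. The labels describe the mice as untreated C57BL6/J animals of 4 to 6 weeks, and the cells as a stromal culture of 7 to 10 days' growth, fed αMEM medium, which itself supplies amino acids, plus 10% fetal calf serum. Nothing in the labels tells if the 2 RNA samples derive from different mice or dishes, and their difference may thus be technical. With 1 group there is no comparison of conditions and no p-value.

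Amino acids cross membranes on carriers that differ in substrate and in driving force. Some accumulate amino acids with sodium or protons, others swap one amino acid for another, and the light chains of family Slc7 reach the cell surface only when joined to a heavy chain of family Slc3. Growing fibroblasts use such carriers to take up glutamine, leucine, arginine and cystine, which feed protein synthesis, mTORC1 signalling and glutathione. Part of family Slc6 instead clears neurotransmitters from synapses, and those genes are described apart.

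All values are log2 intensities. A gene was called above a limit when it passed that array's limit on both arrays. The first limit, the 95th percentile of 1035 probe sets for olfactory receptors, was 7.17 on replicate 2 and 7.15 on replicate 1. The stricter one, taken in the same way from 36 probe sets of liver, testis, retina and other tissue-restricted genes, was 8.18 on replicate 2 and 8.08 on replicate 1. Since 16 of those 36 genes (44.4%) passed the olfactory receptor limit themselves, a gene between the limits is not called expressed here. Levels of different genes were not set against each other, because probes bind with different strength.

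The fibroblast label fitted its markers: Pdpn, Pdgfra, Pdgfrb, Thy1 and Col1a1 lay above both limits, at 11.94 to 13.11 on replicate 2 and 11.84 to 12.81 on replicate 1, and all 5 were higher on replicate 2. Above the tissue-restricted limit were 0 of 5 leukocyte, 0 of 5 endothelial, 0 of 4 epithelial and 0 of 7 neural and glial markers, while 1, 2, 1 and 5 of them, in that order, passed the olfactory receptor limit. The arrays differed in the proliferation marker Mki67, chosen with its values known, at 9.45 on replicate 2 and 10.52 on replicate 1, and the endothelial markers did not move one way: Emcn had 8.40 on replicate 2 and 7.64 on replicate 1, Cdh5 had 7.53 on replicate 2 and 8.05 on replicate 1, and Pecam1 had 7.13 on replicate 2 and 7.22 on replicate 1.

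Of the 60 transporter genes, 40 lay above the olfactory receptor limit, or 66.7%, against 67.3% of all named genes, and 26 lay above the tissue-restricted limit, or 43.3%, against 49.9%. Both shares were near those of all genes, so the families as a whole did not stand out. By class, the stricter limit was passed by 4 of 5 large neutral carriers, both small neutral exchangers, 6 of 11 Slc38 carriers and 1 of 5 acidic carriers, which are small numbers to set against 49.9%. The 4 large neutral carriers include Slc43a3, known in human cells to carry purine bases and not amino acids. The remaining 14 genes of the 40 lay between the limits, 5 genes passed the olfactory receptor limit on 1 array and 15 on neither.

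**Figure D1:**
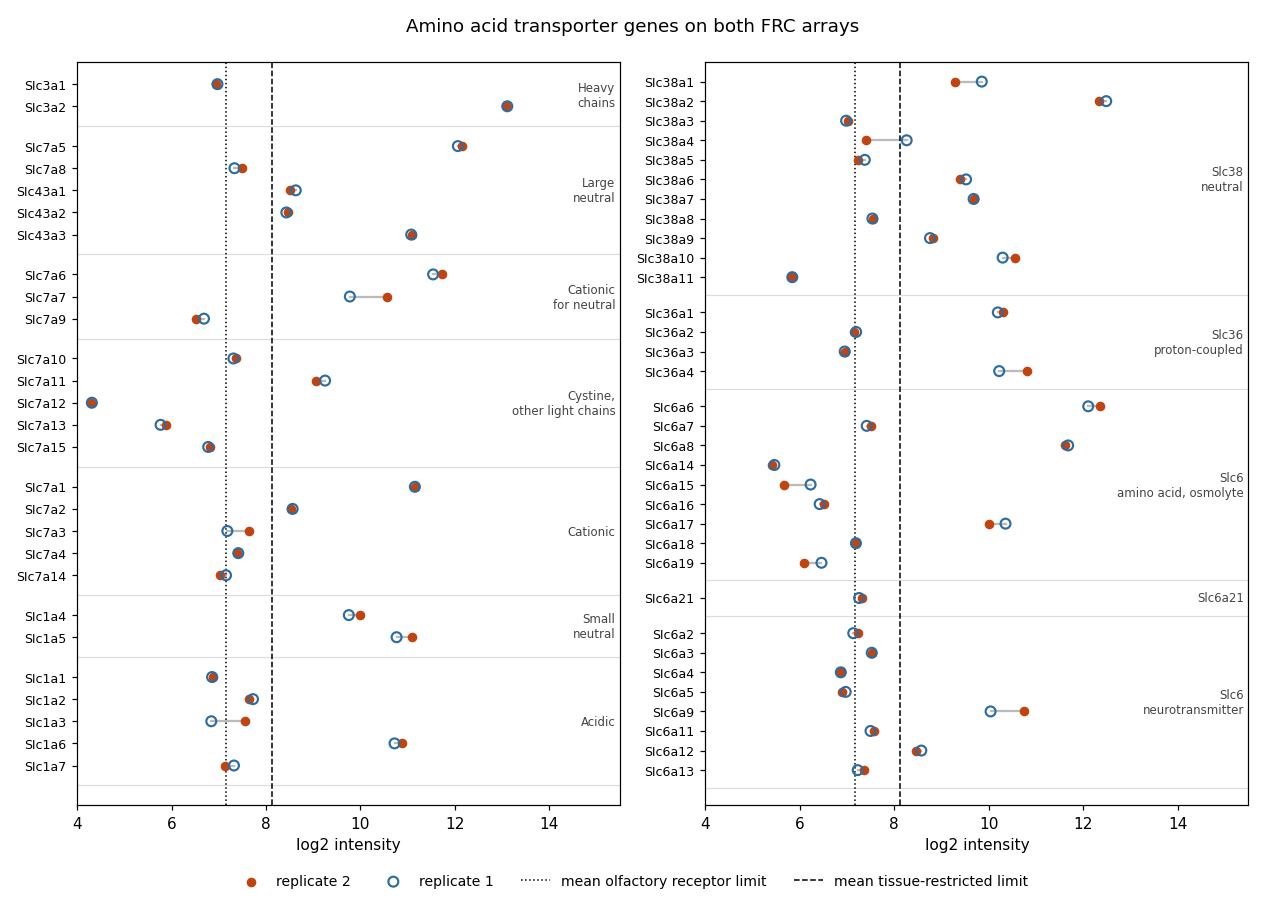
Log2 intensity (x axis) of each transporter gene (rows, by class) on replicate 2 (filled) and replicate 1 (open), with the mean olfactory receptor limit (dotted, 7.16) and the mean tissue-restricted limit (dashed, 8.13). Slc3a2 lies far right of both lines and Slc3a1 left of them, and the widest gaps between the arrays are those of Slc38a4, Slc7a7, Slc1a3 and Slc6a9; positions of different genes are not comparable.

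**Figure D2:**
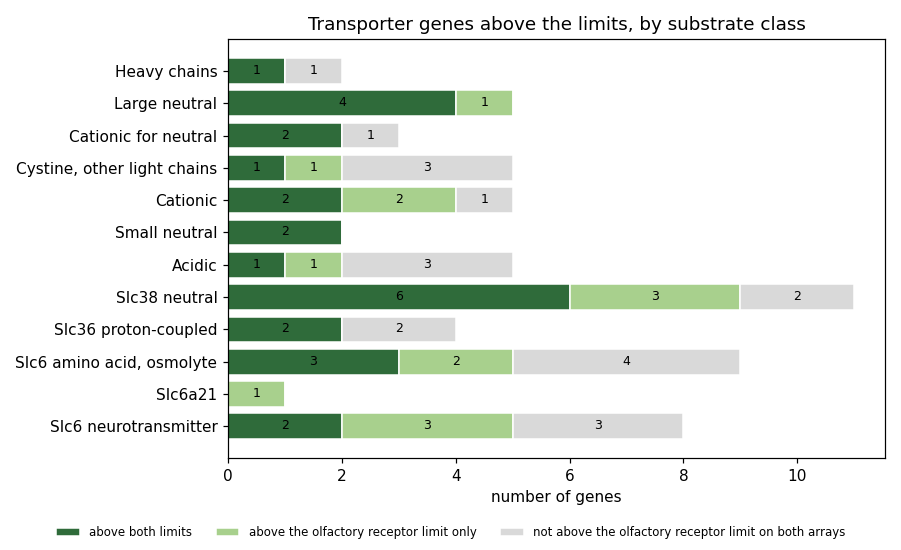
Number of transporter genes (x axis) in each class (rows) that lay above both limits on both arrays, above the olfactory receptor limit only, or not above it on both arrays. Both small neutral exchangers and 4 of 5 large neutral carriers passed both limits, against 1 of 5 acidic carriers and 2 of 8 neurotransmitter carriers. The 4 large neutral carriers include Slc43a3, known in human cells to carry purine bases and not amino acids.

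The 2 heavy chains fell on opposite sides of the limits, although both passed with the olfactory receptor limit at the 90th percentile. Slc3a2, the heavy chain of CD98 that carries most light chains to the plasma membrane and also binds beta-1 integrin, had 13.09 on replicate 2 and 13.11 on replicate 1. Slc3a1, which pairs with Slc7a9 in kidney and gut to reabsorb cystine and cationic amino acids, had 6.95 on replicate 2 and 6.97 on replicate 1, below the olfactory receptor limit on both. Light chains were counted by partner, in numbers too small to set against all genes. Of the 6 that join Slc3a2, 4 passed both limits (Slc7a5, Slc7a6, Slc7a7 and Slc7a11), or 66.7%, against 49.9% of all named genes. Slc7a8 and Slc7a10 lay between the limits. Of the 2 that join Slc3a1, Slc7a9 and Slc7a13, 0 passed the olfactory receptor limit, against 67.3% of all named genes. Their levels were 5.87 to 6.52 on replicate 2 and 5.77 to 6.69 on replicate 1. Unlike Slc3a1, neither passed that limit at the 90th percentile. Itgb1, the integrin partner of Slc3a2, had 13.18 on replicate 2 and 13.22 on replicate 1.

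Among carriers of large neutral amino acids, Slc7a5, the leucine exchanger LAT1, had 12.15 on replicate 2 and 12.06 on replicate 1. Its relative Slc7a8, which is best known from epithelia, had 7.48 on replicate 2 and 7.33 on replicate 1, between the limits on both. The uniporters of family Slc43 all passed both limits. Slc43a1 had 8.50 on replicate 2 and 8.63 on replicate 1, and Slc43a2 had 8.46 on replicate 2 and 8.43 on replicate 1. Slc43a3, a family member known in human cells to carry purine bases and not amino acids, had 11.10 on replicate 2 and 11.07 on replicate 1. The differences of these 5 genes between the arrays ran from -0.13 to 0.15.

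The exchangers of cationic for neutral amino acids, of which Slc7a6 and Slc7a7 export arginine or lysine, included one of the larger differences between the arrays. Slc7a6 had 11.72 on replicate 2 and 11.54 on replicate 1. Slc7a7, whose loss in humans causes lysinuric protein intolerance and which is known from epithelia and macrophages, had 10.56 on replicate 2 and 9.77 on replicate 1. Both arrays lay above both limits for Slc7a7, and the difference was 1.72-fold. The myeloid gene Itgam and the pan-leukocyte gene Ptprc lay below the olfactory receptor limit on both arrays, at 6.30 and 6.47 on replicate 2 and 6.20 and 6.41 on replicate 1. Of the other leukocyte markers, Cd79a and Ms4a1 also lay below it. Cd3e lay between the limits, at 7.60 on replicate 2 and 7.58 on replicate 1. Which cells gave the Slc7a7 signal was not tested. In a bulk sample, more cells that express a gene and more RNA per cell cannot be told apart.

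The cystine-glutamate exchanger xCT, encoded by Slc7a11, brings in the cystine used for glutathione. It had 9.06 on replicate 2 and 9.25 on replicate 1, above both limits. The other light chains of its class, Slc7a12, Slc7a13 and Slc7a15, which are known from mouse kidney or gut, lay between 4.29 and 6.82 on replicate 2 and between 4.31 and 6.78 on replicate 1, below the olfactory receptor limit. Slc7a10, the small neutral amino acid exchanger of brain and fat, lay between the limits at 7.37 on replicate 2 and 7.31 on replicate 1.

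Transcription of Slc7a11 is known to respond to amino acid shortage through the amino acid response element, which ATF4 binds with C/EBP partners. The promoter windows of RefSeq (GRCm38.p6, 250 bases before to 50 after a gene's start) held 64 starts of 43 members and were searched for TGATGNAA, a core of that element, on both strands. It was found in 4 of 43 members (9.30%), against 4.51% of 27025 genes: Slc7a11, Slc1a4, Slc7a7 and Slc6a21. With C as the open base, which gives TGATGCAA, the count was 3 of 43 (Slc7a11, Slc1a4 and Slc7a7), against 1.03% of genes. The first 3 of these genes lay above both limits and Slc6a21 between them. Slc7a7 has 5 listed starts, and more starts give more chances of a match. The antioxidant response element, a site of NRF2, was searched as TGACNNNGC and found in 9 of 43 members (20.9%), against 14.0% of genes, and not in the Slc7a11 window. A match of letters is no evidence of binding. The windows of Slc7a11 and Slc1a4, with 1 listed start each, are shown as examples that hold the response element core upstream of or across the start. Slc7a7, also above both limits, held it at -243, -141 (as TGATGAAA) and -1 of its listed starts and is not shown. The listed start of Slc1a4 is an end of the gene in the RefSeq gene table, and that of Slc7a11 is not. Capitals mark it, in either orientation. For Slc7a11 the bases -150 to -1 before the start are given, chr3:50443614-50443763 of GRCm38.p6, minus strand, and for Slc1a4 the bases -140 to 10, chr11:20332704-20332853, minus strand.
Slc7a11: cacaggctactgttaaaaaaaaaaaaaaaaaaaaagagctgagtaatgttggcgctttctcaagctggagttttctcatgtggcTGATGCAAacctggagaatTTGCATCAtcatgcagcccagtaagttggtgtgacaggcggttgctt
Slc1a4: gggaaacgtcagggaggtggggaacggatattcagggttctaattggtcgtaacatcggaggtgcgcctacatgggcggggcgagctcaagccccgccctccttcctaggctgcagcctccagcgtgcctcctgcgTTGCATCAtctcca
Slc7a11 held the core at -66 and, in the opposite orientation, at -47, and Slc1a4 held it once, from -4 across the start.

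Cationic amino acid carriers supply arginine and lysine. Slc7a1, the broadly expressed carrier CAT1, had 11.16 on replicate 2 and 11.15 on replicate 1. Slc7a2, which in macrophages and liver feeds arginine to nitric oxide synthase and arginase, had 8.52 on replicate 2 and 8.56 on replicate 1. Both passed both limits on each array and differed by no more than 0.04 between them. Slc7a3, known from neurons, had 7.63 on replicate 2 and 7.18 on replicate 1, narrowly above the olfactory receptor limit on replicate 1. Slc7a4 lay between the limits, and Slc7a14, a lysosomal relative, passed the olfactory receptor limit on replicate 1 alone, at 7.03 on replicate 2 and 7.15 on replicate 1.

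Both exchangers of small neutral amino acids passed both limits. Slc1a5, the glutamine exchanger ASCT2 of dividing cells, had 11.09 on replicate 2 and 10.76 on replicate 1. Slc1a4, which exchanges serine, alanine and cysteine, had 10.00 on replicate 2 and 9.75 on replicate 1. The 5 acidic carriers of the same family, which take up glutamate and aspartate and are known best from brain, passed the olfactory receptor limit in 2 cases (all 5 with that limit at the 90th percentile) and the stricter one in 1. That one was Slc1a6, the glutamate carrier of Purkinje cells, with 10.87 on replicate 2 and 10.72 on replicate 1, measured by a single probe set. Slc1a2, the main astrocyte carrier, lay between the limits, and Slc1a1, the carrier of neurons and kidney, lay below them at 6.88 on replicate 2 and 6.86 on replicate 1. Slc1a3, the glutamate-aspartate carrier of glia, had 7.56 on replicate 2 and 6.84 on replicate 1, so it passed the olfactory receptor limit on replicate 2 alone and was at least 1.33-fold higher there. Slc1a7, the retinal carrier, passed that limit on replicate 1 alone, at 7.14 on replicate 2 and 7.32 on replicate 1. Of the glial markers, Gfap and S100b lay below the olfactory receptor limit on both arrays and Sox10 lay between the limits, at 8.07 on replicate 2 and 8.004 on replicate 1, and the neural and glial list as a whole lay between 6.57 and 8.07 on replicate 2 and between 6.75 and 8.004 on replicate 1.

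Family Slc38 moves glutamine, alanine and other neutral amino acids with sodium, at the plasma membrane or at the lysosome. Of its 11 measured genes, 9 passed the olfactory receptor limit (81.8%, against 67.3% of all named genes) and 6 the stricter one (54.5%, near the 49.9% of all named genes). Slc38a2, the system A carrier induced by amino acid shortage, had 12.33 on replicate 2 and 12.49 on replicate 1. Slc38a1, the other widely used system A carrier, was measured by 2 probe sets that disagreed in level. One gave 10.50 on replicate 2 and 11.13 on replicate 1, and the other gave 8.07 on replicate 2, below the stricter limit there, and 8.58 on replicate 1. Both probe sets were lower on replicate 2, with differences of -0.63 and -0.51, and their mean differed by 1.48-fold, just under the 1.5-fold threshold used below. Slc38a4, a system A carrier of liver and placenta that is imprinted in mice, had 7.40 on replicate 2 and 8.26 on replicate 1, so it passed the stricter limit on replicate 1 alone.

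Slc38a9 and Slc38a7, which act at the lysosome, differed little between the arrays. Slc38a9, the arginine sensor that signals to mTORC1, averaged 8.81 on replicate 2 and 8.76 on replicate 1 over 2 probe sets, one of which lay below the stricter limit on both arrays at 8.08 on replicate 2 and 8.01 on replicate 1. Slc38a7, a lysosomal exporter of glutamine, had 9.68 on both replicate 2 and replicate 1. Slc38a6 had 9.40 on replicate 2 and 9.52 on replicate 1, and Slc38a10 had 10.55 on replicate 2 and 10.29 on replicate 1. The system N carriers Slc38a3 and Slc38a5, which move glutamine in liver and glia, did not pass the stricter limit. Slc38a5 lay between the limits like Slc38a8, and Slc38a3 and Slc38a11 lay below both.

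In the RefSeq gene order, Slc38a1, Slc38a2 and Slc38a4 stand next to each other among protein-coding genes of chromosome 15. All 3 were lower on replicate 2, with differences of -0.57, -0.16 and -0.86. Other neighbouring members did not all share a direction. Opposite signs were seen for Slc6a13 and Slc6a12 (0.14 and -0.11), Slc36a1 and Slc36a2 (0.12 and -0.05), and Slc6a18 and Slc6a19 (0.01 and -0.38). Like signs were seen for Slc36a3 and Slc36a2 (-0.002 and -0.05) and for Slc6a16 and Slc6a21 (0.08 and 0.07). Slc6a19, Slc36a3 and Slc6a16 did not reach the olfactory receptor limit on either array, and Slc36a2 passed it on replicate 1 alone. The signs of pairs with these genes thus rest partly on background signal. That leaves the pair Slc6a13 and Slc6a12, where both genes passed this limit on each array. The difference of Slc6a18 became -0.005 under quantile normalisation. A link of gene order to these differences was not tested. The start of Slc38a2 had 41 CG pairs in 300 bases and each of the 3 listed starts of Slc38a4 had 5, while no window was given for Slc38a1. The 250 bases before the start of Slc38a2 and before the most upstream start of Slc38a4 are shown for that contrast, with CG pairs in capitals, from chr15:96699729-96699978 and chr15:97055957-97056206 of GRCm38.p6, both on the minus strand.
Slc38a2: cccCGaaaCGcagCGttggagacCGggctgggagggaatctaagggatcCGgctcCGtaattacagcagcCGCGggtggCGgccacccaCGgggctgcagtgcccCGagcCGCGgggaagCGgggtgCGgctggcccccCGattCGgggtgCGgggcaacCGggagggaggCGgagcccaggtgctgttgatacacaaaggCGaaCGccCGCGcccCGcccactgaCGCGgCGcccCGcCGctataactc
Slc38a4: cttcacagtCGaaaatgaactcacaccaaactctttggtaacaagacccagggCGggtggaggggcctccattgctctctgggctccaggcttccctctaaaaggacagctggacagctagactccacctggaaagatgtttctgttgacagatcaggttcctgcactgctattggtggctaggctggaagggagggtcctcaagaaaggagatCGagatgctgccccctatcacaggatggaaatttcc

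Members above both limits had more CG pairs at their starts, by the median. Counting CG pairs in the 300-base window, at the start with most pairs where several are listed, the median was 21 in 19 members above both limits, 10.5 in 10 between the limits and 8 in 14 not above the olfactory receptor limit. All named genes with a window showed the same order, with medians of 23, 13 and 4, so it is not particular to the transporters. The groups overlapped. Slc7a11 and Slc6a12, with 4 and 5 pairs, were above both limits, and Slc1a1 and Slc6a4, with 32 and 28, were below. The 17 members without a window, Slc7a5, Slc1a5 and Slc38a1 among them, are not part of these counts.

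**Figure D3:**
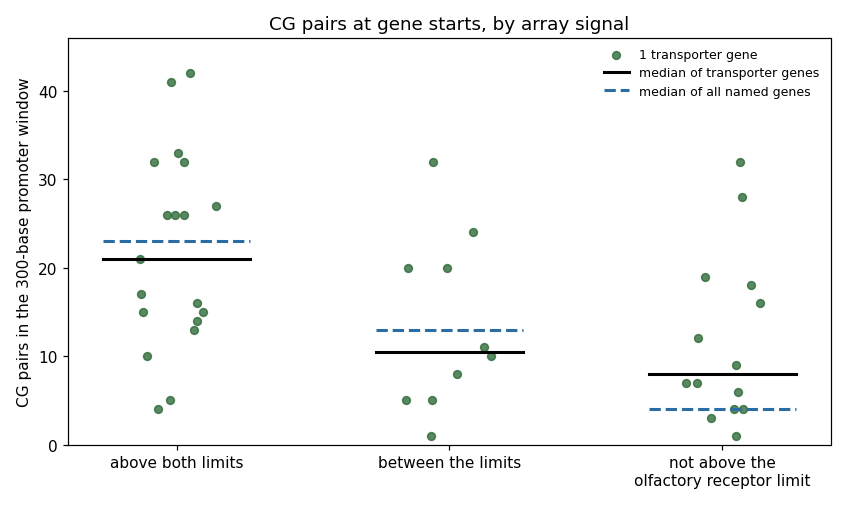
CG pairs in the 300-base promoter window (y axis) of the 43 transporter genes with a window, by array signal (x axis); each point is a gene, the solid bar the median of the transporter genes and the dashed bar the median of all named genes in that group. Medians of transporter genes are 21, 10.5 and 8, and points of the 3 groups overlap.

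In family Slc36, 2 of 4 genes for proton-coupled carriers passed both limits. Slc36a1, which releases small amino acids from lysosomes, had 10.31 on replicate 2 and 10.19 on replicate 1. Its chromosome 11 neighbours Slc36a2, a kidney carrier of glycine and proline, and Slc36a3, a testis gene, lay at 6.95 to 7.14 on replicate 2 and 6.95 to 7.19 on replicate 1, and of them only Slc36a2 passed the olfactory receptor limit, on replicate 1. Slc36a4, known in human cells as a carrier of proline and tryptophan, had 10.81 on replicate 2 and 10.22 on replicate 1. Both arrays were above both limits for Slc36a4, with a difference of 1.51-fold.

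In family Slc6, the carriers of taurine and creatine gave signal and most amino acid carriers did not. Slc6a6, the taurine carrier that cells use against osmotic stress, had 12.35 on replicate 2 and 12.11 on replicate 1. Slc6a8, the creatine carrier, had 11.62 on replicate 2 and 11.68 on replicate 1. Slc6a17, a carrier of neutral amino acids into synaptic vesicles, had 10.01 on replicate 2 and 10.36 on replicate 1. The general synaptic genes Snap25, Syp and Syt1 lay between the limits on both arrays, at 7.18 to 7.25 on replicate 2 and 7.17 to 7.30 on replicate 1. The brain proline carrier Slc6a7 and the kidney carrier Slc6a18 lay between the limits, as did Slc6a21, for which no role is given. Slc6a14, Slc6a15, Slc6a16 and the gut and kidney carrier Slc6a19 lay below both, at 5.41 to 6.50 on replicate 2 and 5.46 to 6.46 on replicate 1. Cltrn, the collectrin that takes Slc6a19 to the membrane in kidney, had 5.37 on replicate 2 and 5.24 on replicate 1.

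Among 8 neurotransmitter carriers, 5 passed the olfactory receptor limit (62.5%, against 67.3% of all named genes) and 2 the stricter one (25.0%, against 49.9%). The first count was 8 with that limit at the 90th percentile and 2 at the 99th. Slc6a9, the glycine carrier of glia that is also known from red cell precursors, had 10.75 on replicate 2 and 10.04 on replicate 1, a 1.64-fold difference with both arrays above both limits. Slc6a12, the carrier of betaine and GABA, had 8.46 on replicate 2 and 8.57 on replicate 1. Its neighbour on chromosome 6, Slc6a13, and the GABA carrier Slc6a11 lay between the limits, at 7.36 and 7.56 on replicate 2 and 7.23 and 7.50 on replicate 1. The dopamine carrier Slc6a3 was also between them, at 7.54 on replicate 2 and 7.52 on replicate 1. The noradrenaline carrier Slc6a2 passed the olfactory receptor limit on replicate 2 alone (7.23 on replicate 2, 7.13 on replicate 1), and the serotonin carrier Slc6a4 and the neuronal glycine carrier Slc6a5 lay below it on both.

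Differences between the replicates were taken over the 44 members whose mean lay above the mean olfactory receptor limit of 7.16. Of these 44, 5 differed at least 1.5-fold, or 0.58 on the log2 scale, a larger share than the 4.77% of 13577 genes. That larger share rests on few members and was not tested. On replicate 2, 4 were higher (Slc7a7, Slc1a3, Slc6a9 and Slc36a4), where 2.87% of genes were, and 1 was lower (Slc38a4), where 1.91% were. The median difference of the members, 0.03, was near that of all genes, 0.0046, and so was the median size of a difference, 0.12 against 0.11. At 2-fold, 0 members and 1.41% of genes differed. Slc36a4, with 0.592, lay just inside the threshold of 0.585 and Slc38a1, with 0.567, just outside it. Slc38a4 differed 1.82-fold, but its lower array lay below the stricter limit, and with that array set to the limit it was at least 1.06-fold lower on replicate 2. Slc1a3 lay below the olfactory receptor limit on replicate 1 and passed the level filter only through replicate 2. With replicate 1 set to that limit, Slc1a3 was at least 1.33-fold higher on replicate 2, short of the 1.5-fold under which it is counted. Slc1a3 lay below the stricter limit on both arrays, so no fold is given against that limit.

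**Figure D4:**
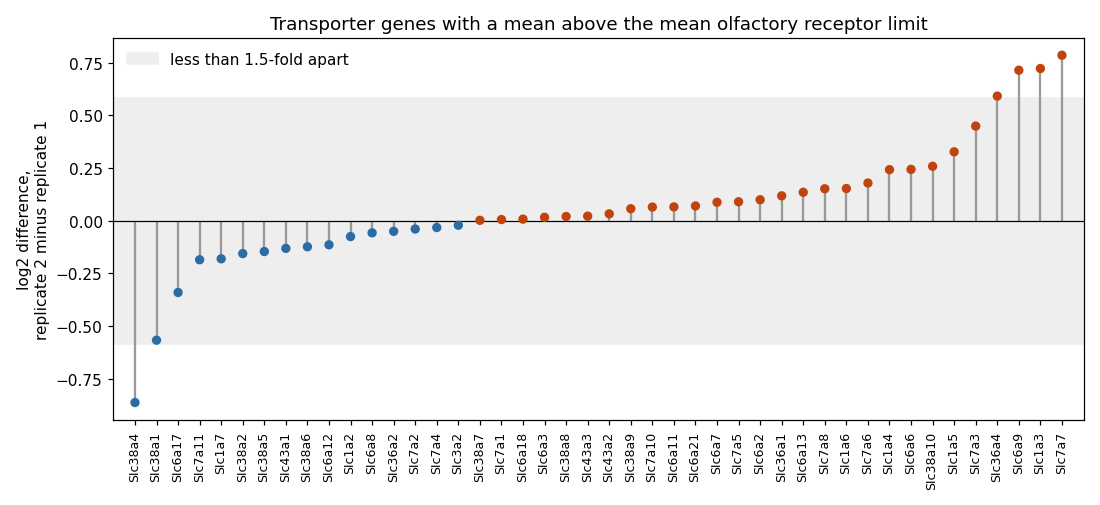
Log2 difference, replicate 2 minus replicate 1 (y axis), of the 44 transporter genes with a mean above the mean olfactory receptor limit (x axis, in order of the difference); the grey band covers differences under 1.5-fold. Slc7a7, Slc1a3, Slc6a9 and Slc36a4 lie above the band and Slc38a4 below it, and Slc38a1 lies just inside its lower edge. Slc1a3 lay below the olfactory receptor limit on replicate 1, so its plotted difference includes background signal.

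The 6 carriers to be reported whatever their value were under 1.5-fold apart. Their log2 differences were -0.02 for Slc3a2, 0.01 for Slc7a1, 0.09 for Slc7a5, -0.16 for Slc38a2, -0.19 for Slc7a11 and 0.33 for Slc1a5. The fibroblast markers were 0.10 to 0.52 higher on replicate 2 and Mki67 was 1.07 lower there. The part of these in the differences of Slc7a7, Slc6a9, Slc36a4 and Slc38a4 was not tested. Each difference rests on 1 array a side and has no replicate check.

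Of 20 amino acid carriers outside the 7 families, 14 passed the olfactory receptor limit (70.0%, against 67.3% of all named genes) and 9 the stricter one (45.0%, against 49.9%), shares near those of all genes, and 0 differed 1.5-fold. The mitochondrial aspartate-glutamate exchangers Slc25a12 and Slc25a13 had 11.36 and 8.89 on replicate 2 and 11.04 and 8.997 on replicate 1, and the ornithine carrier Slc25a15 had 9.04 on replicate 2 and 9.22 on replicate 1. The aromatic amino acid carrier Slc16a10 and the proline carrier Slc6a20a lay between the limits, at 7.46 and 7.28 on replicate 2 and 7.65 and 7.26 on replicate 1, and Slc6a20b was below. The vesicular glutamate carriers Slc17a6, Slc17a7 and Slc17a8 lay below the olfactory receptor limit on both arrays.

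Enzymes that use the glutamine, glutamate and cystine so carried were above the olfactory receptor limit in 12 of 12 measured cases (67.3% of all named genes were) and above the stricter one in 10 (49.9% were). Glul, which makes glutamine from glutamate, had 10.19 on replicate 2 and 10.61 on replicate 1. Gclc and Gclm, the subunits of the first enzyme of glutathione synthesis, had 11.14 and 11.96 on replicate 2 and 11.11 and 11.90 on replicate 1. Glud1, Got1 and Got2, which interconvert glutamate, ketoglutarate and aspartate, had 11.93 to 13.09 on replicate 2 and 11.99 to 13.23 on replicate 1.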

How the data were processed

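Per the labels' protocols, biotin-labelled cDNA from total RNA of cultured mouse lymph node FRCs was hybridised to 2 arrays. The deposited intensities, on a linear scale, were made by the authors with RMA (background correction, quantile normalisation, probe set summary) per the submitters' processing notes; its version, and which arrays were normalised together, are not given in the sources used here. RMA compresses differences at low signal. The deposited intensities were converted here to log2 values, with medians of 286 on both arrays before conversion. Precision is limited by having only 2 arrays.

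Of 24679 probe sets, 21354 name 1 gene in the platform annotation, 1275 name several and 2050 have no entry; only the first kind was used. Probe sets of a gene were averaged (2 of 60 members had 2). All 60 member identifiers were found in the RefSeq gene table of GRCm38.p6 with the same symbol. No significance test was possible with 1 group. Members were picked by symbol alone, but the families, and the lists, classes and limits, were chosen with earlier results of these data known. All members could be named, with both values for Slc3a2, Slc7a5, Slc7a11, Slc7a1, Slc1a5 and Slc38a2 and for those above the stricter limit, at least 1.5-fold apart or on different sides of a limit. The alternatives were other percentiles, 1 array, the highest or lowest probe set, quantile normalisation, a loess trend (span 0.3) removed, other level filters and a 2-fold threshold. The count of differences was checked on simulated data. Python 3.11.15, numpy 2.4.6, pandas 2.3.3 and statsmodels 0.14.6 were used.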

Additional observations from a re-analysis of the deposited data

How the results depend on the processing

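No paired analysis was possible because the series has 1 group. Of 104 recomputed counts, 91 stayed within 1.5 times of the reported one. That share is no measure of robustness, because many settings could hardly change a count. Only Slc38a1 and Slc38a9 had 2 probe sets, and quantile normalisation repeats a step of RMA. The 13 counts that moved did so with other percentiles, the stricter level filter or the 2-fold threshold. With the olfactory receptor limit at the 99th percentile, 26 members passed, the same 26 that pass the stricter limit, since 0 were gained and the 14 between the limits were lost. The class counts were then 3 for Slc6 amino acid and osmolyte carriers, 2 for neurotransmitter carriers, 1 for acidic carriers, 2 for cationic carriers, 1 for cystine and other light chains and 0 for Slc6a21. At the 90th percentile 52 members passed, among them 8 neurotransmitter carriers, 5 acidic carriers, 2 heavy chains and 4 proton-coupled carriers, so the statement that Slc3a1 lies below the limit depends on that choice. On a single array 42 to 43 members passed the first limit and 26 to 27 the stricter one. With the lowest probe set, Slc38a1 and Slc38a9 no longer passed the stricter limit. Of the 5 members at least 1.5-fold apart, 3 were left with a mean above the stricter limit (Slc38a4 and Slc1a3 were lost) and 0 at 2-fold. Slc36a4 was lost under quantile normalisation and loess, and Slc38a1 was gained with the highest probe set. Quantile normalisation and loess moved the difference of a member by at most 0.04 and 0.01, too little to reverse a difference of 1.5-fold. The small differences of Slc7a1, Slc38a7, Slc43a3 and Slc6a18 changed sign under quantile normalisation, and those of Slc7a1 and Slc38a7 also under loess.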

Other observations

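Genes of the lysosomal machinery by which amino acids are reported to mTORC1 gave signal almost throughout. Of 33 genes, 32 passed the olfactory receptor limit, 31 of them also the tissue-restricted one (67.3% and 49.9% of all named genes did), and 0 differed 1.5-fold between the arrays. Mtor had 9.85 on replicate 2 and 10.04 on replicate 1, and the small GTPase Rheb, which activates mTORC1, had 12.44 on replicate 2 and 12.21 on replicate 1. The Rag GTPases, which bring mTORC1 to the lysosome, were split: Rraga had 10.67 on replicate 2 and 10.62 on replicate 1, Rragc had 11.12 on replicate 2 and 11.07 on replicate 1, Rragd lay between the limits and Rragb was below both, at 5.37 on replicate 2 and 5.89 on replicate 1. Sesn2, a leucine sensor, had 10.37 on replicate 2 and 10.46 on replicate 1, and Castor1, an arginine sensor, had 11.00 on replicate 2 and 10.77 on replicate 1. These examples, other than Rragb, were chosen after their values were seen.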
